A study of Phalaenopsis aphrodite subsp. formosana with 4 samples.

Results

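miR171 and miR396 are conserved plant miRNA families that act on transcription factors of meristems and growing organs. Their members here are the sequences whose best match in miRBase is a miR171 or a miR396 of any letter and any species. There were 165 such sequences of 11129 in all, 126 of miR171 and 39 of miR396. They came from 4 small RNA libraries of Phalaenopsis aphrodite subsp. formosana, strain M1624, a native moth orchid in which lower temperature brings on the flower stalk. The flower bud library (FB) was collected at month 3.5 and the stalk library (S) at months 1.5 to 2, both from plants kept at 24°C by day and 18°C by night. The low temperature-treated leaf library (CL) came from plants at the same temperatures and the untreated leaf library (NL) from plants at 32°C and 27°C, both over months 0 to 2. Each condition had 1 library, and leaf and stalk libraries joined several collection times. Buds and stalks existed only at the lower temperatures, so these organs were compared with CL, and for buds the organ and the later month cannot be told apart. The tables hold miRNA-matched reads and no marker genes, so the tissue of a library was not checked.

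In Arabidopsis, miR171 guides cleavage of transcripts of the HAIRY MERISTEM class of GRAS proteins, which keep stem cells of the shoot apex undifferentiated. miR396 guides cleavage of transcripts of GROWTH-REGULATING FACTOR genes, which promote cell proliferation in young leaves and floral organs, and it is known to rise as leaf cells stop dividing. Plant miRNAs pair with their targets along almost their whole length.

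Only 6 of the 165 sequences had 20 or more reads over the 4 libraries, and these carry the results below. They are named by their best known match and length, and printed 5′ to 3′ in the letters of the files with bases 2 to 8 (the seed) in capitals.
miR171b-type 21 nt: tGATTGAGccgtgccaatatc
miR171d-type 21 nt: tTGAGCCGcgtcaatatctcc
miR171d-type 20 nt: tGAGCCGCgtcaatatctcc
miR396a-type 21 nt: tTCCACAGctttcttgaactg
miR396b-type 18 nt: tTCCACAGctttcttgaa
miR396a-type 18 nt: cACAGCTTtcttgaactg
The miR171b-type sequence was identical to rice osa-miR171b, and the miR396a-type 21 nt sequence to Arabidopsis ath-miR396a. The miR171d-type sequence had 2 mismatches and 1 gap to tomato sly-miR171d. Counted from base 1 of both, the substitutions from the tomato miRNA were C11T and A19T. Against the miR171b-type sequence, the miR171d-type sequence started 3 bases later, at its base 4, and carried the 2 substitutions T9C and C11T over 18 aligned bases, counted from base 1 of the miR171d-type. The 20 nt miR171 form lacked the first base of the 21 nt form. The miR396 forms of 18 nt covered bases 1 to 18 and bases 4 to 21 of the 21 nt form. The rule for this set fell between sequences of 26 and 19 total reads in miR171, and of 34 and 10 total reads in miR396.

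The 6 sequences held 629 of the 915 reads of miR171 (68.7%) and 536 of the 599 reads of miR396 (89.5%). The other 123 sequences of miR171 had 286 reads together and the other 36 of miR396 had 63. A single read was the whole evidence for 87 sequences of miR171 and 25 of miR396. Only 8 sequences of miR171 and 4 of miR396 were found in all 4 libraries. By total reads miR171 stood at rank 17 of 368 families. The study's own table of predicted targets lists 4 further sequences under miR396, which were absent from the counts used here and so could not be analysed. All miR396 values below, the family total included, therefore cover only the sequences analysed. With the other sequences the level of the family, its ratios between libraries and its balance with miR171 could differ, in direction as well.

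The libraries held between 106142 (S) and 404345 (CL) matched reads. Each level is given as reads per 1000000 clean reads (RPM) with an exact Poisson 95% interval, and ratios of RPM have exact conditional binomial 95% intervals. These intervals cover counting error only, since PCR copies are not separate molecules and no condition had a replicate library, so no test between conditions was possible. The comparisons also share libraries. All matched reads together had a ratio of 3.17 for FB/S, 0.769 for FB/CL, 0.242 for S/CL and 1.74 for CL/NL. A ratio near these values means that a miRNA moved with the total of matched reads, in which the most abundant sequences weigh most. A miR528 sequence led the study's list of abundant miRNAs in FB, CL and NL but not in S, so it weighs on these ratios. The median ratio over all sequences with at least 20 reads was 3.17 for FB/S, 0.937 for FB/CL, 0.290 for S/CL and 1.39 for CL/NL. Families with at least 100 reads, and sequences with at least 20 reads, over a pair of libraries counted as higher where the ratio passed 1.5 and as lower where its inverse did.

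Per clean read both families were lowest in stalks, and they differed in the place of buds relative to leaves. miR171 had 417 reads in FB, 110 in S, 172 in CL and 216 in NL. In RPM these were 66.0 (59.8 to 72.7) in FB, 13.7 (11.3 to 16.5) in S, 23.2 (19.9 to 27.0) in CL and 30.0 (26.1 to 34.3) in NL. Flower buds thus had the highest miR171 level, and the leaf libraries had overlapping intervals. miR396 had 70 reads in FB, 28 in S, 232 in CL and 269 in NL. In RPM these were 11.1 (8.64 to 14.0) in FB, 3.49 (2.32 to 5.05) in S, 31.4 (27.5 to 35.7) in CL and 37.4 (33.0 to 42.1) in NL. In RPM the order for the miR396 sequences analysed was NL, CL, FB and S, where the intervals of NL and CL overlapped and the others did not. As a share of all matched reads, miR171 was instead lowest in CL, at 0.0425%, against 0.104% in S and 0.0954% in NL. miR396 then took 0.0264% in both S and FB. In a library made from whole tissue, fewer cells of a type and less RNA per cell cannot be told apart.

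**Figure D1:**
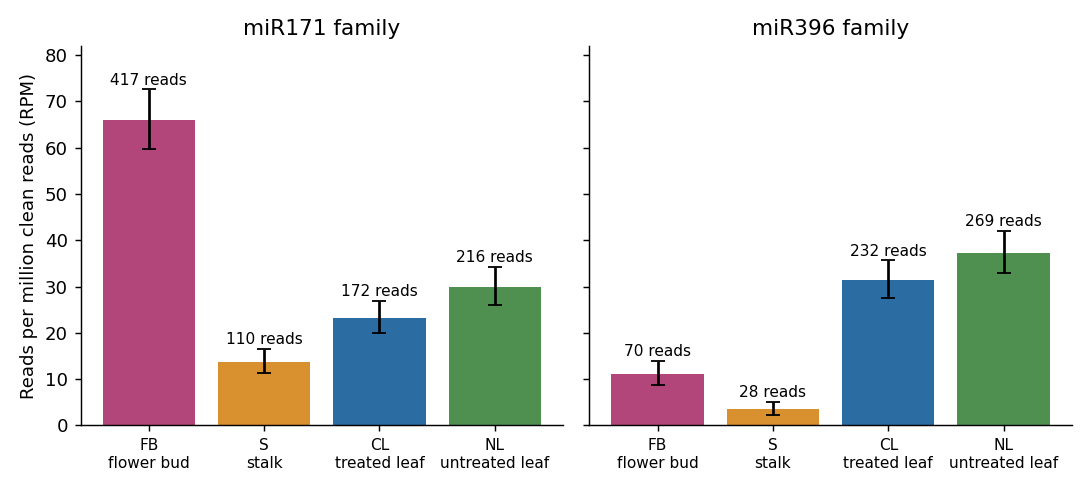
Level of the miR171 and miR396 families, as far as their sequences were analysed, in reads per 1000000 clean reads (RPM, vertical axis) in the FB, S, CL and NL libraries, 1 library each. Bars are the values and error bars the exact Poisson 95% intervals. miR171 was highest in FB at 66.0 RPM, and miR396 was higher in the leaf libraries, at 31.4 and 37.4 RPM, than in FB and S.

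The balance between miR171 and the miR396 sequences analysed does not depend on any denominator, but it would change with the miR396 sequences that were not analysed. A miR396 sequence in the study's list of abundant miRNAs stood above the miR171 family level given here in both FB and S. The excess of miR171 in FB and S therefore holds only for the miR396 sequences analysed. There were 5.96 (4.62 to 7.79) miR171 reads for each miR396 read in FB and 3.93 (2.58 to 6.18) in S. In the leaf libraries there were 0.741 (0.605 to 0.907) in CL and 0.803 (0.668 to 0.964) in NL. Between FB and CL the balance differed by a factor of 8.04 (5.76 to 11.2), and between S and CL by 5.30 (3.29 to 8.71). Between the leaf libraries the factor was 0.923 (0.701 to 1.22), an interval that includes 1.

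The miR171 family total joined sequences with different organ patterns. The miR171b-type 21 nt sequence had 225 reads in FB, 59 in S, 17 in CL and 32 in NL. Its level was 35.6 (31.1 to 40.6) RPM in FB, 7.36 (5.6 to 9.50) in S, 2.30 (1.34 to 3.68) in CL and 4.44 (3.04 to 6.27) in NL. It was thus highest in buds. In stalks it was above CL, but the intervals of S and NL overlapped. The ratio was 15.5 (9.47 to 27.1) for FB/CL, 3.20 (1.84 to 5.86) for S/CL and 4.84 (3.62 to 6.56) for FB/S. Among all sequences with enough reads, 27.1% were called higher in FB/CL, 9.56% in S/CL and 71.1% in FB/S (7.96% lower). The ratios of FB/CL and S/CL lay on the other side of 1 from those of all matched reads, and stayed above 1.5 with every denominator tried.

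The miR171d-type 21 nt sequence was higher in leaves than in buds and stalks, with 41 reads in FB, 13 in S, 94 in CL and 122 in NL. Its level was 6.49 (4.66 to 8.80) RPM in FB, 1.62 (0.864 to 2.77) in S, 12.7 (10.3 to 15.5) in CL and 16.9 (14.1 to 20.2) in NL. This was the main miR171 form of leaves. The ratio was 0.511 (0.345 to 0.745) for FB/CL, where 34.9% of all sequences were called lower. For S/CL it was 0.128 (0.0656 to 0.229), where 74.8% of all sequences were called lower, so a low value in stalks was common to most sequences. The FB/S ratio was 4.002 (2.10 to 8.14), close to that of all matched reads. The 20 nt form, with 4 reads in FB, 1 in S, 11 in CL and 10 in NL, had too few reads for a call in the organ comparisons.

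**Figure D2:**
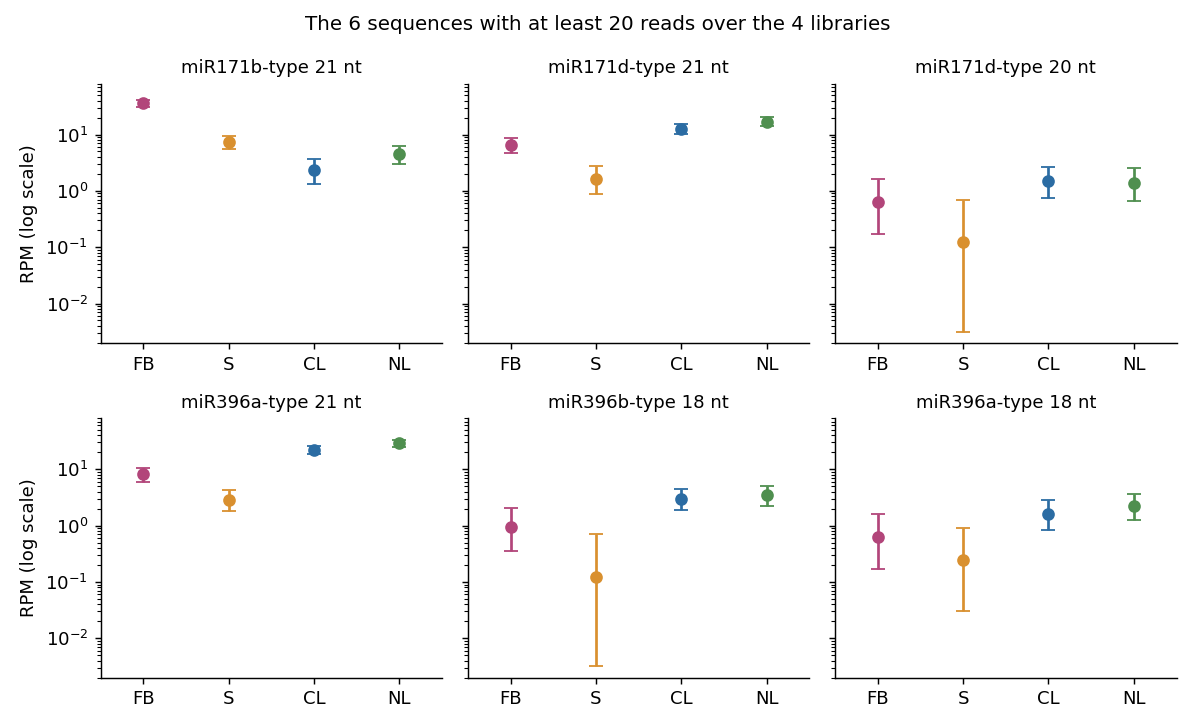
Level of each of the 6 sequences with at least 20 reads in RPM (vertical axis, log scale) in the FB, S, CL and NL libraries. Points are the values of 1 library each and bars the exact Poisson 95% intervals. The miR171b-type 21 nt sequence was highest in FB at 35.6 RPM, and the miR171d-type and miR396 sequences were higher in CL and NL than in S.

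The exchange of forms was large within the family. For each read of the miR171d-type 21 nt sequence there were 5.49 (3.92 to 7.85) reads of the miR171b-type 21 nt sequence in FB and 4.54 (2.46 to 9.02) in S. There were 0.181 (0.101 to 0.305) in CL and 0.262 (0.172 to 0.390) in NL. This balance, which is free of any denominator, differed by a factor of 30.3 (15.8 to 59.4) between FB and CL and of 25.1 (10.7 to 60.2) between S and CL. Between FB and S the factor was 1.21 (0.557 to 2.49) and between CL and NL 0.689 (0.338 to 1.37), and both intervals include 1. The change of balance thus lay between the reproductive organs and the leaves, and none was seen beyond counting error within either pair.

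All 126 miR171 sequences were then sorted by the 8 bases in their middle, CCGTGCCA in the miR171b-type and CCGCGTCA in the miR171d-type, and by their start. Sequences with the miR171b-type middle that began at least 2 bases before the start of the miR171d-type were called early, and the others late. Early forms numbered 21 sequences and 369 reads. They took 59.95% (55.1 to 64.7) of miR171 reads in FB and 55.5% (45.7 to 64.9) in S. In CL they took 10.5% (6.32 to 16.0) and in NL 18.5% (13.6 to 24.4). The 16 sequences with the miR171d-type middle had 338 reads and took 13.2% in FB and 13.6% in S, against 69.2% (61.7 to 76.0) in CL and 69.0% (62.4 to 75.1) in NL. The main sequences made up 333 of the 369 early reads and 270 of the 338 reads with the miR171d-type middle, so these shares mostly restate them. A further 46 sequences, with 59 reads, had neither middle unchanged.

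**Figure D3:**
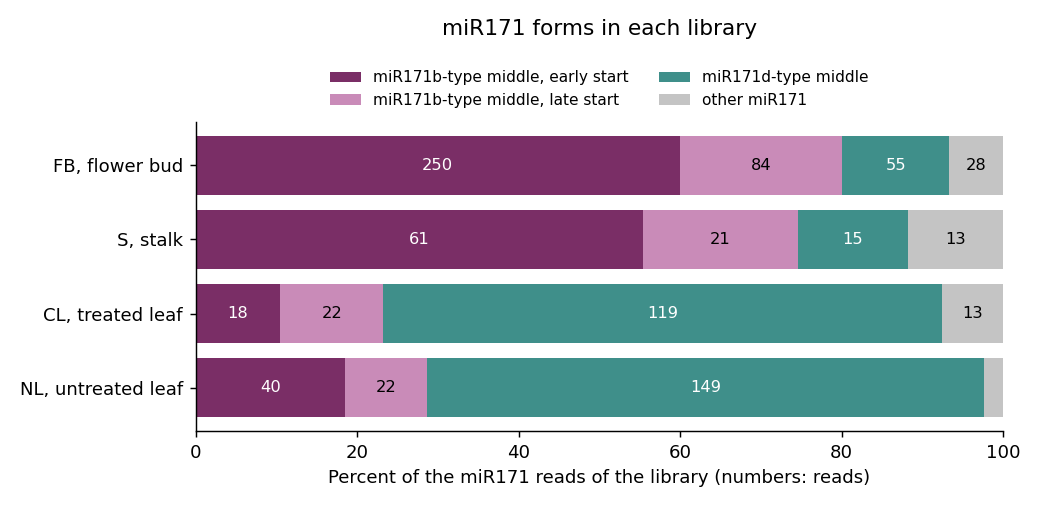
Share of the miR171 reads of each library (horizontal axis, percent) taken by 4 groups of forms, with the number of reads written in the larger segments. Early miR171b-type forms took 59.95% in FB and 55.5% in S, and miR171d-type forms took 69.2% in CL and 69.0% in NL.

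The late forms have the middle of the bud form and begin at or near the start of the leaf form, or later. Their leading sequence, with 18 reads, was named after its values were seen and is shown because it holds the seed of the leaf form.
miR171b-type 20 nt (late start): tTGAGCCGtgccaatatcgc
It shared 18 bases with the miR171b-type 21 nt sequence from base 4 of that sequence on, followed by 2 further bases. None of the 43 late sequences passed 18 reads, and together they had 84 reads in FB, 21 in S, 22 in CL and 22 in NL. In RPM this was 13.3 (10.6 to 16.5) in FB, 2.62 (1.62 to 4.01) in S, 2.97 (1.86 to 4.50) in CL and 3.05 (1.91 to 4.63) in NL. The late group had a ratio of 4.47 (2.77 to 7.51) for FB/CL, against 16.3 (10.1 to 27.9) for the early group. For S/CL it was 0.881 (0.461 to 1.68), against 3.13 (1.82 to 5.62) for the early group. The intervals of late and early forms did not overlap in either comparison, so these groups did not change in step between either organ and CL. In FB/S they overlapped, at 5.08 (3.12 to 8.62) for the late group and 5.20 (3.92 to 7.00) for the early group. They also overlapped in CL/NL, at 0.973 (0.514 to 1.84) and 0.438 (0.236 to 0.782). Late sequences differed in their last bases too, so the contrast is not one of the start alone. The start of a sequence sets its seed, so grouping by seed mostly restates the early group and adds no separate evidence. The seed GATTGAG held 59.95% of miR171 reads in FB, 57.3% in S, 10.5% in CL and 16.2% in NL. The seed TGAGCCG joins the miR171d-type 21 nt sequence and the leading late sequence, though not every miR171d-type or late form. It held 31.2% in FB, 30.0% in S, 77.3% in CL and 73.6% in NL.

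miR396 was built around its 21 nt sequence, the form common to many flowering plants. It had 51 reads in FB, 23 in S, 164 in CL and 210 in NL. Its level was 8.07 (6.01 to 10.6) RPM in FB, 2.87 (1.82 to 4.31) in S, 22.2 (18.9 to 25.8) in CL and 29.2 (25.3 to 33.4) in NL. The leaf libraries were above both reproductive organs with no overlap of intervals. The ratio was 0.364 (0.261 to 0.502) for FB/CL and 0.129 (0.0798 to 0.201) for S/CL. The FB/S ratio of 2.81 (1.69 to 4.82) was near the 3.17 of all matched reads and turned to 0.887 relative to them. The miR396b-type 18 nt sequence had 6 reads in FB, 1 in S, 22 in CL and 25 in NL. The miR396a-type 18 nt sequence had 4 reads in FB, 2 in S, 12 in CL and 16 in NL. Both 18 nt forms therefore had the same order of leaves above buds and stalks as the 21 nt form. Only the miR396b-type 18 nt sequence had enough reads for an organ comparison, with a ratio of 0.319 (0.106 to 0.812) for FB/CL and 0.0420 (0.00102 to 0.260) for S/CL.

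The miR171d-type and miR396a-type 21 nt sequences had like profiles. The ratio of miR171d-type to miR396a-type reads changed by a factor of 1.40 (0.838 to 2.34) between FB and CL, and of 0.986 (0.437 to 2.14) between S and CL. Between FB and S the factor was 1.42 (0.602 to 3.45), and between CL and NL 0.987 (0.693 to 1.40). Every interval includes 1, and the organ intervals are wide enough to hold a change of 2 times.

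Among the miR396 sequences analysed, the share of the 21 nt sequence showed no shift between organs beyond counting error. The 21 nt sequence took 72.9% (60.9 to 82.8) of miR396 reads in FB, 82.1% (63.1 to 93.9) in S, 70.7% (64.4 to 76.5) in CL and 78.1% (72.6 to 82.9) in NL. These intervals overlapped throughout, unlike those of the miR171 forms. With 28 miR396 reads in S and 70 in FB, they are wide enough to hold a sizeable shift. The seed TCCACAG held 91.4% in FB, 85.7% in S, 87.5% in CL and 92.2% in NL. A smaller class, trimmed at the 3′ end, had 63 reads in 3 sequences, and a class trimmed at the 5′ end had 44 reads in 2 sequences. Reads of 18 nt made up 14.3% (7.07 to 24.7) of miR396 in FB, 10.7% (2.27 to 28.2) in S, 15.9% (11.5 to 21.3) in CL and 16.7% (12.5 to 21.7) in NL. Over all matched reads this length took 3.01%, 2.40%, 1.46% and 2.42% of reads in the same order of libraries, so 18 nt reads were more frequent in miR396 than in the bulk in FB, CL and NL. In miR171, 18 nt reads took 5.76%, 4.55%, 2.91% and 1.39% in that order. Reads of 21 nt were the main class of both families, between 69.2% and 73.6% in miR171 and between 76.7% and 82.1% in miR396.

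Between the treated and untreated leaf libraries, neither miR171 nor the miR396 sequences analysed passed the limit of 1.5 in RPM. miR171 had a CL/NL ratio of 0.775 (0.631 to 0.951) and miR396 of 0.839 (0.701 to 1.004). Relative to all matched reads both were called lower, at 0.446 and 0.483, and miR171 was also lower with median-of-ratios scaling, at 0.657. In RPM, 44% of the families tested in this comparison were called higher and 4% lower. The miR171b-type 21 nt sequence had the lowest ratio of the 6, 0.517 (0.269 to 0.959), from 17 reads in CL and 32 in NL. It was the only member of the 6 called lower, beside 10.7% of all sequences. The miR171d-type 21 nt sequence had 0.750 (0.567 to 0.990) and the miR396a-type 21 nt sequence 0.760 (0.616 to 0.937). The miR171d-type 20 nt sequence had 1.07 (0.413 to 2.81), and the 18 nt forms of miR396 had 0.857 (0.460 to 1.58) for the miR396b-type and 0.730 (0.315 to 1.64) for the miR396a-type, with intervals that include 1. The median of the 6 sequences was 0.755, against 1.39 over the 497 sequences tested. No member analysed was called higher in treated leaves, while 44.3% of all sequences were. The study itself reported miR396 as induced in treated leaves by sequencing, from sequences not analysed here. By northern hybridization it reported miR396 as unchanged by the treatment and as expressed mainly in leaves. The study states that such probes may bind sequences with mismatches, so that its blots combine the members of a family. Relative to all matched reads, whose ratio was 1.74, all 6 sequences were called lower. The share of all sequences called with that denominator is not given here, so this count has no background.

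Across organs, miR171 as a family was called higher in FB/CL at 2.84 (2.37 to 3.41), where 32.1% of families were. This call depended on the miR171b-type 21 nt sequence, since without it the ratio was 1.45 (1.17 to 1.80) and the family was not called. That interval still lay wholly above 1. miR396 was called lower there at 0.353 (0.267 to 0.464), where 21.4% of families were. In S/CL both were called lower, at 0.590 (0.460 to 0.754) for miR171 and 0.111 (0.0724 to 0.165) for miR396, as were 72% of families, and the miR171 ratio turned to 2.44 relative to all matched reads. In FB/S miR171 was called higher at 4.81 (3.89 to 5.99), as were 65.4% of families (3.85% lower), and miR396, at 3.17 (2.02 to 5.11), had 98 reads over both libraries, too few for a call. Of the 4 member sequences tested in FB/CL, 1 was higher and 3 were lower, beside 27.1% and 34.9% of all sequences tested. Their median was 0.438, against 0.937 over all. In S/CL 1 was higher and 3 were lower as well, beside 9.56% and 74.8%, so the lower calls were near the share of all sequences. The median there was 0.129, against 0.290 over all.

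**Figure D4:**
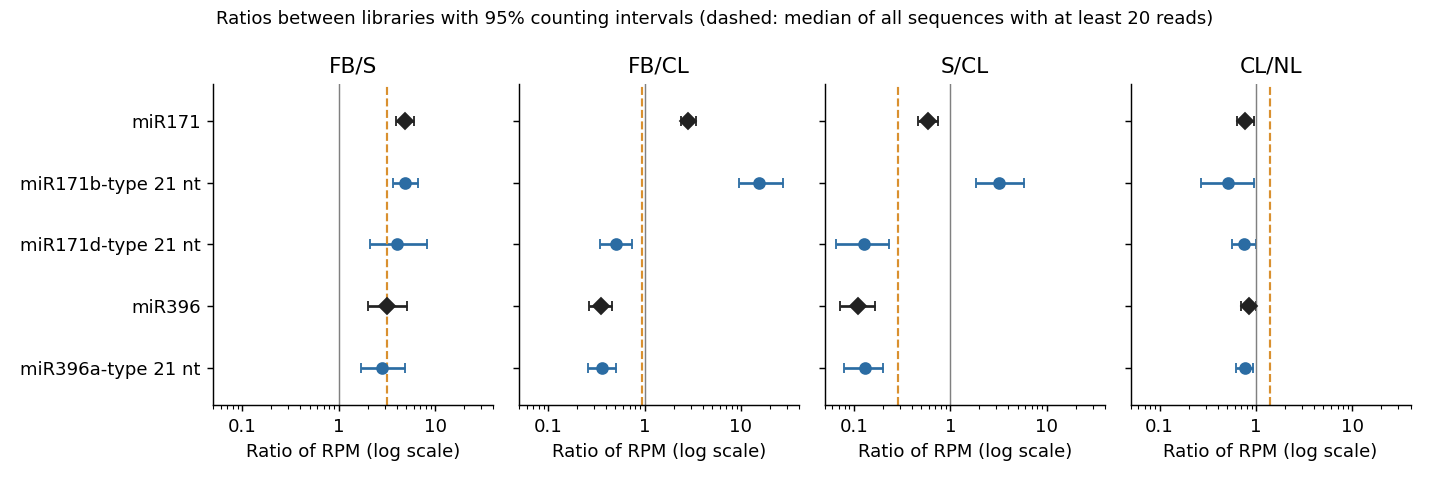
Ratio of RPM (horizontal axis, log scale) for both families (diamonds) and their 21 nt sequences (circles) in FB/S, FB/CL, S/CL and CL/NL, with exact conditional binomial 95% intervals. The grey line is a ratio of 1 and the dashed line the median of all sequences with at least 20 reads. The miR171b-type and miR171d-type sequences lie on opposite sides of 1 in FB/CL, at 15.5 and 0.511, and in S/CL, at 3.20 and 0.128.

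Profiles over the 4 libraries were compared with those of the 35 other families that had at least 100 reads, by the Euclidean distance between RPM divided by their sum. The family nearest to miR171 was miR165, which acts on class III HD-ZIP genes of organ polarity, at a distance of 0.0885. It had 17.6 RPM in FB, 6.86 in S, 6.62 in CL and 8.47 in NL. Next came miR159, a regulator of GAMYB genes, at 0.124 and miR829 at 0.126. Nearest to miR396 was miR167, which acts on auxin response factors, at 0.116, with 955 RPM in FB, 596 in S, 6738 in CL and 6091 in NL. It was followed by miR157, a relative of the phase regulator miR156, at 0.222 and by miR894 at 0.231. The distance between miR171 and miR396 was 0.476. These distances describe 4 libraries and carry no test.

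Other regulators of meristem, polarity and auxin signalling were read from a list of 9 families: miR160, miR164, miR165, miR166, miR167, miR319, miR390, miR393 and miR394. In FB/CL 7 of the 9 had enough reads, of which 3 were called higher and 1 lower, beside 32.1% and 21.4% of all families. Higher were miR319, which acts on TCP genes of leaf growth, at 8.62 (4.91 to 16.3), miR160, which acts on auxin response factors, at 3.34 (2.22 to 5.12), and miR165 at 2.65 (1.88 to 3.79). Lower was miR167 at 0.142 (0.138 to 0.146), and the median of the 7 was 1.01. In S/CL 4 of 5 families with enough reads were called lower and none higher, beside 72% and 12% of all families. In FB/S 6 of 7 were called higher and none lower, beside 65.4% and 3.85%. In CL/NL none of 5 was called, beside 44% higher and 4% lower, and the median of the 5 was 0.926, against 1.40 over all families.

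Sequences that the study lists for these families but that had fewer than 20 reads were 5 of miR171 and 6 of miR396. None had more than 2 reads over the 4 libraries. They include 2 sequences of each family that the study placed on predicted precursors. Relatives of miR171 by sequence were as rare, since miR170 had 2 reads, both in FB, and miR479 had 7.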

How the data were processed

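Gel-selected small RNA of each tissue was sequenced by the authors on an Illumina 1G Genome Analyzer. They discarded reads of low quality, reads shorter than 18 nt, adaptors and contaminants, then collapsed identical reads and aligned the unique sequences by BLAST to miRBase 15. For BLAST, no version is given in the sources used here. Deposited counts are reads of each unique matched sequence, not normalized, with its best match, mismatches, gaps and an alignment score given by the authors. The column labelled as query length held the length of the known miRNA. Column totals of the tables are matched reads only, so RPM used the clean read totals that the study states. Members were taken from the number after miR in the best match, and reads were summed over sequences. Ratios, shares and levels have exact intervals (Python 3.11.15, scipy 1.17.1, pandas 2.3.3). Only the ratio intervals and calls were tried on simulated data, with CL and NL reads drawn with Poisson error alone. With 1 library per condition no test between conditions was made. The named sequences are those with 20 or more reads over the 4 libraries and those in the study's tables. The named families are the 3 nearest in profile and a fixed list. Members, lists and rules were chosen with earlier results of these data known.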

Additional observations from a re-analysis of the deposited data

How the results depend on the processing

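Relative to all matched reads, the miR171 ratio moved to 1.52 for FB/S, 3.69 for FB/CL and 0.446 for CL/NL, and turned to 2.44 for S/CL. That of miR396 moved to 1.0 for FB/S, 0.460 for S/CL and 0.483 for CL/NL. With median-of-ratios scaling over 45 abundant sequences, miR171 was at 2.06 for FB/S and turned to 1.40 for S/CL, and miR396 was at 1.36 and 0.265. Perfect matches, which drop the miR171d-type, gave miR171 ratios of 15.8 for FB/CL, 3.20 for S/CL (turned) and 0.517 for CL/NL, and at most 2 mismatches and gaps gave 9.62 for FB/CL and 1.92 for S/CL (turned). Without the most abundant sequence, miR171 was at 1.45 for FB/CL, no longer called, and 0.304 for S/CL, and miR396 at 0.0679 for S/CL and 1.12 for CL/NL. The causes of the other moves were not tested.

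Of the members called, 3 in FB/S became 1 relative to all matched reads. The 1 called in CL/NL became 6 relative to all matched reads, 4 with median-of-ratios scaling, 3 by intervals that exclude 1, and 0 with a ratio limit of 2 or at least 50 reads. The shares of all sequences called under these settings are not given here, so these counts have no background. At most 2 mismatches and gaps moved the share of the miR171b-type 21 nt sequence in miR171 to 74.0% in FB, 76.6% in S, 45.9% in CL and 56.1% in NL, since it drops the miR171d-type, and that of the miR396a-type 21 nt sequence in miR396 to 77.7% in CL and 84.7% in NL. Leaving out sequences with a single read moved the first to 59.2% in FB. The FB/S ratio of the miR396a-type sequences turned to 0.887 (21 nt) and 0.800 (18 nt) relative to all matched reads, a setting chosen for single sequences after seeing the data. miR171 in CL/NL, not called in RPM, became lower with median-of-ratios scaling (0.657) and with at most 2 mismatches and gaps (0.632), although both values lay within its interval. In all, 71 results for families, counts and shares, these 2 included, stayed within their intervals or count limits. No paired analysis was possible because each condition had 1 library.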
